A study of Mus musculus with 18 samples.

Results

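The genes described here encode NF-kB transcription factor subunits, the IkB-type proteins that bind them, and one kinase that controls them. They are Relb, Nfkb2, Rela, Rel, Nfkbia, Nfkbib, Nfkbie, Nfkbiz, Bcl3 and Map3k14. They were chosen by name, as a list drawn up with earlier results of these arrays known, and all 10 of the 10 listed were measured, each by 1 probeset that the array annotation assigns to 1 symbol, among 19938 genes. Expression was measured in XCR1+ dendritic cells (DC) of the mouse thymus, on 18 Affymetrix Mouse Gene ST arrays.

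All mice were on the B6 background and were left untreated. The control group (CTRL) was wild-type mice kept under specific-pathogen-free (SPF) conditions, the Ifnar1-KO group was SPF mice without a type I interferon receptor chain, and the GF group was germ-free wild-type mice. Every sort took CD11b- CD11c+ MHCII+ CD172a- XCR1+ CD8a+ cells. Immature cells were further gated as CD117+ CCR7-, and homeostatically mature cells as CD117- CCR7+. Each of the 6 groups of stage and background had 3 arrays. The study asked whether maturation in the thymus depends on type I interferon and on the microflora. Neither mouse age nor the source of each array (a mouse or a pool) is stated in the labels. The p-values therefore measure only the spread between these arrays, which may be partly technical. Over the 2000 most variable genes, the first principal component (86.9% of the variance) separated the stages, and the second (4.20%) set apart both replicate 2 arrays of Ifnar1-KO and replicates 2 and 3 of GF at both stages.

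In resting cells, NF-kB dimers are held in the cytoplasm by IkB proteins. In the canonical arm, receptor signals activate the IKK complex, IkB is degraded, and dimers of RelA or c-Rel with p50 enter the nucleus. In the non-canonical arm, receptors such as CD40, the lymphotoxin beta receptor and RANK stabilise the kinase NIK, the product of Map3k14, and the Nfkb2 precursor is processed so that RelB complexes form. Several of these genes are themselves NF-kB targets, and RelB is a known regulator of DC differentiation and maturation. Arrays measure mRNA, and they show neither protein, processing nor location in the cell.

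All 10 genes were higher in CCR7+ than in CCR7- cells in CTRL mice, with adjusted p under 0.05 (limma, Benjamini-Hochberg over all genes). Over all genes, 12.6% were called higher and 13.6% lower in that comparison, 26.2% in either direction; since the list was drawn up with results known, its count is not independent of them. The median change of the 10 genes was 1.37 on the log2 scale, and that of all genes was 0.07. Relb had the largest change, 7.42-fold, followed by Nfkb2 at 3.60-fold. The smallest was that of Nfkbiz, at 1.99-fold. The same 10 genes were called higher in Ifnar1-KO mice, where 9.42% of all genes were called higher and 10.8% lower (20.2% in all). They were also called higher in GF mice, where 9.53% of all genes were called higher and 11.8% lower (21.3% in all). Across all 3 backgrounds, 6.74% of all genes were called higher each time. Sorted cells were measured in bulk, so a change in the share of cells that express a gene and a change in RNA per cell cannot be told apart.

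**Figure D1:**
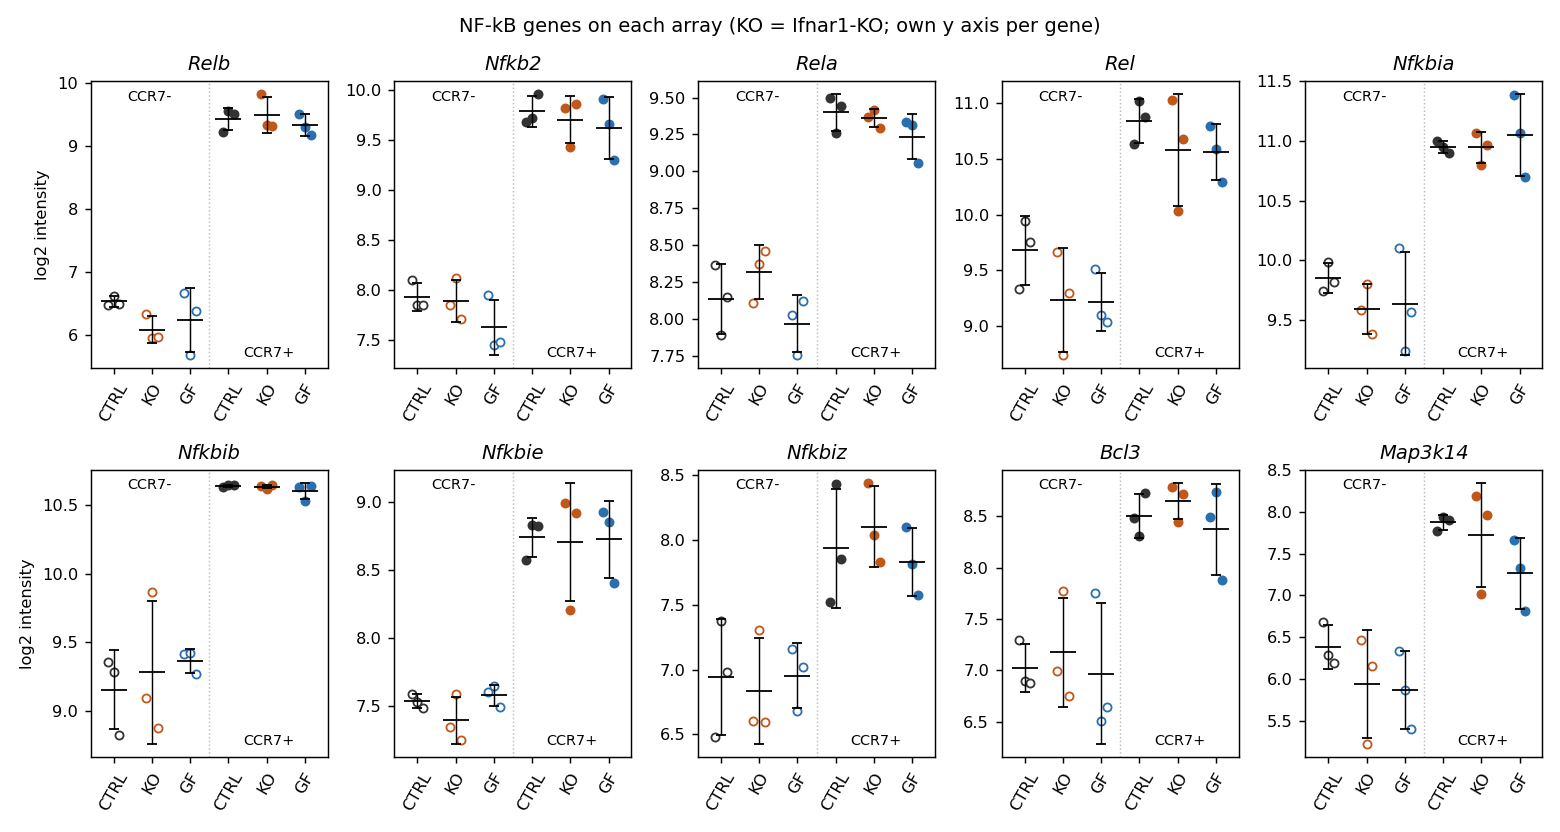
Log2 intensity of each of the 10 genes on every array (points), by background in CCR7- and CCR7+ cells, with the group mean ± SD in black and a separate y axis for each gene. In every panel the 9 CCR7+ arrays lie above the 9 CCR7- arrays, with the widest gap for Relb (2.50) and the narrowest for Rel (0.09).

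Relb encodes the subunit through which the non-canonical arm acts. In CTRL mice it read 6.49, 6.63 and 6.50 log2 units on the immature arrays and 9.22, 9.55 and 9.51 on the mature arrays. In Ifnar1-KO mice it read 6.35, 5.95 and 5.98 in immature cells and 9.82, 9.34 and 9.31 in mature cells. In GF mice the values were 6.68, 5.69 and 6.39, and then 9.52, 9.30 and 9.17. No mature array of any background came within 2.50 log2 units of an immature one. The change was 2.89 ± 0.21 (SE) in CTRL (adjusted p = 1.2e-07), 3.40 in Ifnar1-KO (adjusted p = 2.78e-08) and 3.08 in GF (adjusted p = 7.03e-08). Among the 19938 genes ordered by log2 change, Relb stood at place 119 in CTRL, 78 in Ifnar1-KO and 108 in GF. Its 95% interval lay above the intervals of the other 9 genes in each background: it ran from 2.44 to 3.34 in CTRL, where the next highest upper bound was 2.23.

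Nfkb2 encodes the precursor protein whose processed form pairs with RelB. It read 8.10, 7.85 and 7.85 in immature and 9.67, 9.72 and 9.96 in mature CTRL cells. Its values were 7.85, 8.12 and 7.71, then 9.82, 9.43 and 9.86, in Ifnar1-KO mice, and 7.95, 7.46 and 7.48, then 9.91, 9.65 and 9.30, in GF mice. The stages were again separate, by 1.18 log2 units at the closest. Nfkb2 rose by 1.85 ± 0.18 in CTRL (adjusted p = 1.72e-06), by 1.81 in Ifnar1-KO (adjusted p = 2.55e-06) and by 1.99 in GF (adjusted p = 8.8e-07). It stood at places 341, 388 and 317 among all genes.

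Map3k14 encodes NIK, the kinase upstream of Nfkb2 processing, and its probeset held the lowest single reading of the set, 5.22. The median array level over all genes was between 4.62 and 4.75. Immature CTRL cells gave 6.68, 6.28 and 6.19, and mature ones 7.77, 7.94 and 7.90. Ifnar1-KO cells gave 6.46, 5.22 and 6.15, then 8.19, 7.01 and 7.96, and GF cells 6.33, 5.87 and 5.40, then 7.66, 7.33 and 6.81. Over all backgrounds the stages were separate by only 0.14, between immature CTRL replicate 1 and mature GF replicate 3. Replicate 2 of Ifnar1-KO and replicate 3 of GF were the lowest of their groups in both stages. Map3k14 had the widest spread within groups, a pooled SD of 0.46. It rose by 1.49 ± 0.35 in CTRL (adjusted p = 0.00475), by 1.78 in Ifnar1-KO (adjusted p = 0.00149) and by 1.40 in GF (adjusted p = 0.00832).

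Rela and Rel encode the DNA-binding subunits of the canonical arm that carry transactivation domains. Rela had the tightest spread within groups, a pooled SD of 0.17. Its arrays read 8.36, 7.89 and 8.15 in immature and 9.50, 9.26 and 9.44 in mature CTRL cells, and 8.11, 8.37 and 8.46, then 9.37, 9.42 and 9.30, in Ifnar1-KO cells. In GF cells they read 8.02, 7.75 and 8.12, then 9.34, 9.31 and 9.06. The stages were 0.60 apart at the closest, and the change was 1.27 ± 0.13 in CTRL (adjusted p = 4.34e-06), 1.04 in Ifnar1-KO (adjusted p = 3.48e-05) and 1.27 in GF (adjusted p = 5.11e-06). Rel read 9.34, 9.95 and 9.76, then 10.63, 11.02 and 10.88, in CTRL cells. It read 9.66, 8.74 and 9.30, then 11.03, 10.04 and 10.68, in Ifnar1-KO cells, and 9.52, 9.10 and 9.04, then 10.79, 10.59 and 10.30, in GF cells. One mature array, replicate 2 of Ifnar1-KO, came within 0.09 of the highest immature CTRL array, while within each background every mature array lay above the immature ones. Rel rose by 1.16 ± 0.26 in CTRL (adjusted p = 0.00404), by 1.35 in Ifnar1-KO (adjusted p = 0.00157) and by 1.34 in GF (adjusted p = 0.00153).

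The classical inhibitors rose with the subunits. Nfkbia, which encodes IkB alpha, the inhibitor that is resynthesised after NF-kB activation, read 9.74, 9.99 and 9.82, then 11.00, 10.95 and 10.90, in CTRL cells. It read 9.58, 9.80 and 9.38, then 11.06, 10.80 and 10.97, in Ifnar1-KO cells, and 10.10, 9.24 and 9.57, then 11.38, 11.06 and 10.70, in GF cells. The rise was 1.10 ± 0.19 in CTRL (adjusted p = 0.000563), 1.35 in Ifnar1-KO (adjusted p = 0.000102) and 1.41 in GF (adjusted p = 6.84e-05). Nfkbib, which encodes IkB beta, varied among immature arrays and hardly at all among mature ones. It read 9.36, 9.28 and 8.82, then 10.63, 10.65 and 10.65, in CTRL cells, 9.09, 9.87 and 8.88, then 10.64, 10.62 and 10.65, in Ifnar1-KO cells, and 9.41, 9.42 and 9.27, then 10.63, 10.53 and 10.64, in GF cells. All 9 mature arrays therefore lay between 10.53 and 10.65. Its rise was 1.49 ± 0.19 in CTRL (adjusted p = 2.89e-05), 1.36 in Ifnar1-KO (adjusted p = 8.25e-05) and 1.24 in GF (adjusted p = 0.000183). The model uses 1 spread for all groups of a gene, so for Nfkbib it averages over these unequal stages.

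Nfkbie encodes IkB epsilon, another cytoplasmic inhibitor. It read 7.59, 7.53 and 7.49, then 8.58, 8.83 and 8.82, in CTRL cells. Ifnar1-KO arrays gave 7.35, 7.59 and 7.25, then 8.99, 8.21 and 8.92, and GF arrays 7.60, 7.65 and 7.50, then 8.93, 8.85 and 8.41. Its immature values stayed within a narrow band in every background, and its rise was 1.21 ± 0.18 in CTRL (adjusted p = 0.000127), 1.31 in Ifnar1-KO (adjusted p = 6.84e-05) and 1.15 in GF (adjusted p = 0.000221).

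Nfkbiz and Bcl3 encode nuclear IkB-type proteins that bind NF-kB dimers on DNA and can act as co-regulators. Nfkbiz read 6.48, 7.37 and 6.98, then 7.52, 8.43 and 7.86, in CTRL cells. It read 6.60, 7.31 and 6.59, then 8.44, 8.04 and 7.83, in Ifnar1-KO cells, and 7.16, 6.68 and 7.02, then 8.10, 7.82 and 7.57, in GF cells. The stages were 0.15 apart at the closest, and the change was 0.99 ± 0.28 in CTRL (adjusted p = 0.015), 1.27 in Ifnar1-KO (adjusted p = 0.00352) and 0.88 in GF (adjusted p = 0.0345). This call was the least stable of the set. In CTRL it was lost without immature replicate 1 (0.76, adjusted p = 0.0824) or without mature replicate 2 (0.75, adjusted p = 0.0725). In GF it was lost without immature replicate 2 (0.74, adjusted p = 0.126), immature replicate 3 (0.91, adjusted p = 0.0672), mature replicate 1 (0.74, adjusted p = 0.128) or mature replicate 2 (0.88, adjusted p = 0.0763). Bcl3 read 7.30, 6.90 and 6.88, then 8.48, 8.30 and 8.72, in CTRL cells. It read 6.996, 7.77 and 6.76, then 8.78, 8.44 and 8.71, in Ifnar1-KO cells, and 7.76, 6.51 and 6.65, then 8.49, 8.74 and 7.88, in GF cells. The highest immature and the lowest mature Bcl3 array were 0.10 apart. Bcl3 rose by 1.48 ± 0.32 in CTRL (adjusted p = 0.00274), by 1.47 in Ifnar1-KO (adjusted p = 0.00336) and by 1.40 in GF (adjusted p = 0.00464).

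For all 10 genes, the 9 mature arrays lay above the 9 immature arrays. Of all 19938 genes, 7% did so. Of the 10 genes, 5 kept their GF call when GF replicates 2 and 3 were left out at both stages, which leaves 1 GF array per stage whose spread is assumed to be like that of the other groups. The changes of Rel (1.28, adjusted p = 0.14), Nfkbib (1.22, adjusted p = 0.0683), Nfkbiz (0.94, adjusted p = 0.334), Bcl3 (0.74, adjusted p = 0.339) and Map3k14 (1.32, adjusted p = 0.21) then no longer passed.

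**Figure D2:**
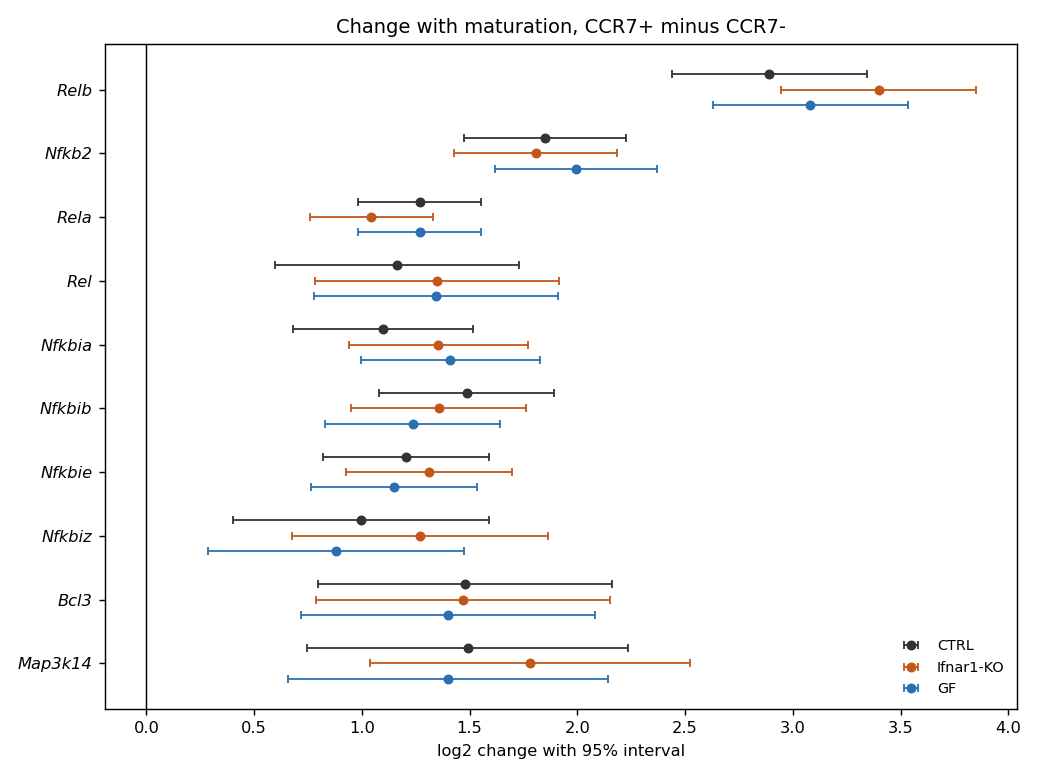
Change from CCR7- to CCR7+ cells on the log2 scale for each gene (points) with its 95% interval (lines), in CTRL, Ifnar1-KO and GF mice. All 30 intervals lie above 0, and the interval of Relb lies above those of the other 9 genes in each background.

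Promoter sequences show which of these jointly higher genes carry a kappa B motif close to their start. The RefSeq promoter table (GRCm38.p6; 250 bases before to 50 bases after each start) held 8 of the 10 genes, in 10 windows; Relb and Nfkbiz had no entry. The kappa B consensus was searched on both strands. It matched in 5 of the 8 genes, Rel, Nfkb2, Nfkbia, Nfkbie and Bcl3, and in 7 of their 10 windows, some of which overlap. It matched in 1480 of 32851 windows of the table, 4.51%. Rela, Nfkbib and Map3k14 had no match in their windows. The genes with a match are shown here, with the bases of the match in capitals and each sequence written 5′ to 3′ along the gene's own strand. The first 4 are the bases before the first start, and the last 2 are short stretches around a match at Nfkb2 between its starts and at Bcl3 just after its start.
Rel, chr11:23770970-23771219 (minus strand): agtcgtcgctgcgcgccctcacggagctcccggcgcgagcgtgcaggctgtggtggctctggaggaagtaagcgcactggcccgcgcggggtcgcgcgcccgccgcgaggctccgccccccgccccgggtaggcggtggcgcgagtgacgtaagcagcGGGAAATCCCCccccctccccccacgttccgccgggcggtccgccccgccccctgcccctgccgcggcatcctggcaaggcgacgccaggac
Nfkb2, chr19:46304487-46304736 (plus strand): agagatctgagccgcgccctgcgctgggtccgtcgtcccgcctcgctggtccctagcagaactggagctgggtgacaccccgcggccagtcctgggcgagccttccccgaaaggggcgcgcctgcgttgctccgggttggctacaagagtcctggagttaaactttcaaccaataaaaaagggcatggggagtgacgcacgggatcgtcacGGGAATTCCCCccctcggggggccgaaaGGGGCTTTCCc
Nfkbia, chr12:55492648-55492897 (minus strand): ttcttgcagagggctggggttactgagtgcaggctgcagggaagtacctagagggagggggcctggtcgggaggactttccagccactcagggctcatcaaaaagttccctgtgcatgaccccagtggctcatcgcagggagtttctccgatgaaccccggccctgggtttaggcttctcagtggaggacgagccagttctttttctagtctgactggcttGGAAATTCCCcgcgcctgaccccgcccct
Nfkbie, chr17:45555450-45555699 (plus strand): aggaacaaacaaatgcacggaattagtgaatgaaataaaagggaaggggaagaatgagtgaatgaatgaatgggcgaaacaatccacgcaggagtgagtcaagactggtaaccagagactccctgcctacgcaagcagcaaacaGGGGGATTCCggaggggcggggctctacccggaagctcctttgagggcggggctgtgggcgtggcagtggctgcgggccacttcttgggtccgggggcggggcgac
Nfkb2, chr19:46305695-46305724 (plus strand): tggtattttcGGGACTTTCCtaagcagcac
Bcl3, chr7:19822734-19822763 (minus strand): tcggcggcagGGGAAGTCCCgctgcccggc
In Rel the match began 92 bases before the start, in Nfkbia 29 and in Nfkbie 106. Nfkb2 held matches 39 and 11 bases before its first start, and Bcl3 one that began 3 bases after its start. The core of the interferon-stimulated response element (GAAA, then NN, then GAAA), searched on both strands, was in none of the member windows and in 3.44% of all windows. The STAT-type element TTCNNNGAA was in 1 member, Nfkb2, and in 8.3% of all windows. A match describes letters in this window and shows no binding, and an absent match shows nothing about a factor.

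Whether the change from CCR7- to CCR7+ cells itself differed between backgrounds was tested as an interaction. None of the 10 genes was called, for Ifnar1-KO or for GF against CTRL, and of all genes 0% were called in either comparison. At an unadjusted p under 0.05, limma gave 0 of the 10 genes in each, beside 901 of all genes for Ifnar1-KO and 660 for GF. Both comparisons use the same 6 CTRL arrays. The Relb change was 0.51 larger in Ifnar1-KO than in CTRL, with a 95% interval from -0.13 to 1.15, and 0.19 larger in GF, with an interval from -0.45 to 0.83. The narrowest interval was that of Rela, where the Ifnar1-KO change differed by -0.22 (interval -0.63 to 0.18) and the GF change by 0.00 (interval -0.40 to 0.40). For Nfkb2 the differences were -0.04 (interval -0.58 to 0.49) and 0.14 (interval -0.39 to 0.68).

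The remaining genes also had intervals that include 0. For Rel the difference was 0.18 in both backgrounds, with intervals from -0.62 to 0.99 and from -0.62 to 0.98. For Nfkbia it was 0.26 in Ifnar1-KO (interval -0.33 to 0.84) and 0.31 in GF (interval -0.28 to 0.90), and for Nfkbib it was -0.13 (interval -0.71 to 0.44) and -0.25 (interval -0.83 to 0.32). Nfkbie differed by 0.11 (interval -0.44 to 0.65) and -0.06 (interval -0.60 to 0.49). The widest intervals in this fit were -0.56 to 1.12 and -0.96 to 0.72 for Nfkbiz, -0.97 to 0.96 and -1.04 to 0.89 for Bcl3, and -0.76 to 1.34 and -1.14 to 0.96 for Map3k14. The median half-width was 0.61 log2 units, so a difference of that size between backgrounds could have been missed for a typical member. A call also had to pass the adjustment over all genes, so larger differences could have gone uncalled too. These intervals come from a fit that does not pair the arrays. With the replicate number as a block within each background, which pairs the stages, the median half-width was 0.51. The interval of Rel then narrowed to -0.06 to 0.43 for Ifnar1-KO and -0.06 to 0.42 for GF, and that of Map3k14 to -0.08 to 0.65 and -0.46 to 0.27. The interval of the larger Relb change in Ifnar1-KO became 0.03 to 0.99, which no longer includes 0 (unadjusted p = 0.0400 in limma), but it did not pass the adjustment over all genes (adjusted p = 0.832).

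**Figure D3:**
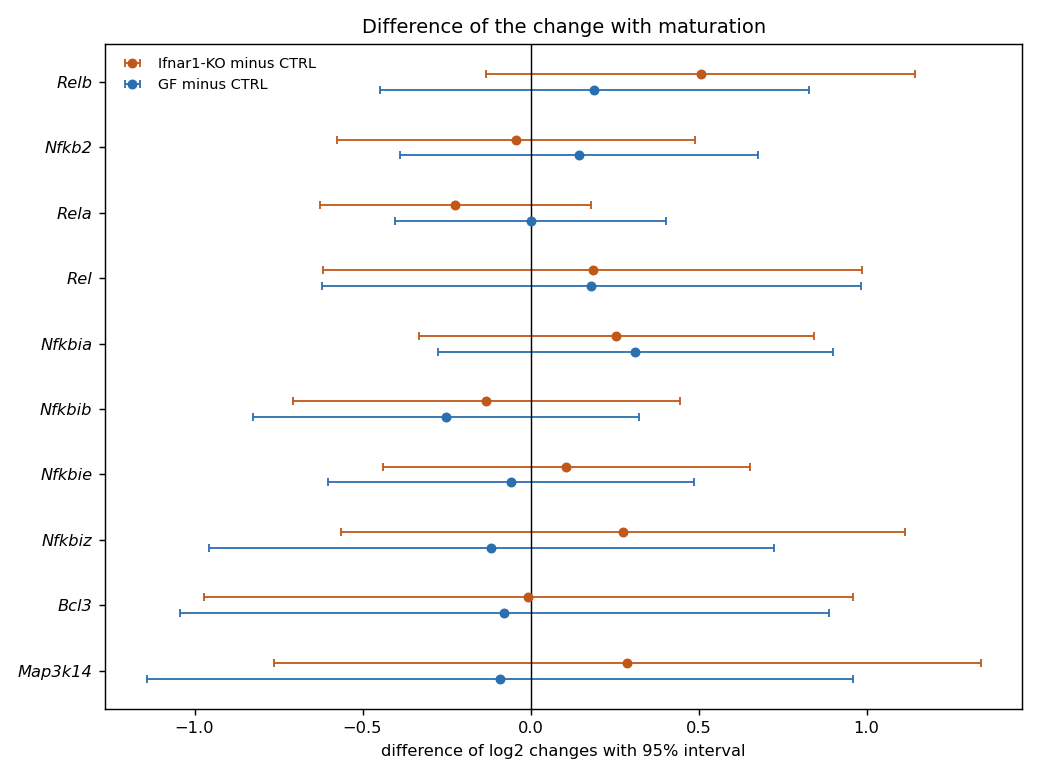
Difference of the maturation change from that in CTRL mice, on the log2 scale, for Ifnar1-KO and GF (points) with 95% intervals (lines), from the fit without a replicate block. All 20 intervals include 0, and they are narrowest for Rela and widest for Map3k14.

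Within a stage, none of the 10 genes was called between backgrounds. Ifnar1-KO and CTRL were compared in immature cells, where 0% of all genes were called, and in mature cells, where 0.015% were. GF and CTRL were compared in immature cells (0.015%) and in mature cells (0.0301%). At an unadjusted p under 0.05, the limma fit without a block gave 0 of the 10 genes in each of these comparisons, beside 1401, 582, 1260 and 1168 of all genes. The nearest was Relb in immature cells, 0.45 ± 0.21 lower in Ifnar1-KO than in CTRL (difference -0.45, 95% interval -0.90 to 0.01, adjusted p = 0.681, unadjusted p = 0.0524). With the replicate number as a block across all groups, its interval was -0.87 to -0.02, which excludes 0 (unadjusted p = 0.0425 in limma). The labels do not link same-numbered arrays of different backgrounds, so this block has no stated basis. The Relb difference did not pass the adjustment over all genes there (adjusted p = 0.681). In immature cells Rel differed from CTRL by -0.45 in Ifnar1-KO and -0.46 in GF, and Map3k14 by -0.44 and -0.52. In mature GF cells Map3k14 differed by -0.61 (interval -1.35 to 0.14, adjusted p = 0.908). Differences were negative for 7 of the 10 genes in immature cells of either background, for 7 in mature Ifnar1-KO cells and for 9 in mature GF cells. Over all genes, 38.5% of differences were negative for Ifnar1-KO and 39.4% for GF in immature cells, and 49.3% and 48.2% in mature cells. The 10 measured mature DC markers had a median difference of -0.61 for Ifnar1-KO and -0.85 for GF in immature cells, with 0 of 10 called in each. Their array means were 7.28 to 7.55 in immature CTRL, 6.49 to 7.33 in immature Ifnar1-KO and 6.37 to 7.48 in immature GF cells, and their part in the members' differences was not tested. The Ifnar1-KO and GF comparisons of a stage share their CTRL arrays.

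Other measured features of the arrays moved with stage or background. The mean of 18 thymocyte markers, of 20 listed, was 4.46 to 4.79 on immature and 5.17 to 5.79 on mature CTRL arrays, 4.56 to 5.28 and 5.28 to 7.71 in Ifnar1-KO, and 4.56 to 4.80 and 5.41 to 6.16 in GF. Of these markers, 3 were called higher and 0 lower with maturation in each background. Over all genes, 12.6% were called higher in CTRL, 9.42% in Ifnar1-KO and 9.53% in GF, and 13.6%, 10.8% and 11.8% lower. The reading of 7.71 belonged to mature Ifnar1-KO replicate 2, where Cd3d reached 10.25. All 10 members were still called higher in Ifnar1-KO without both replicate 2 arrays, a setting chosen after seeing the data. The Ifnar1-KO arrays that remained also rose in the thymocyte mean, from 4.56 and 4.57 to 5.28 and 5.61. The part of thymocyte RNA in the changes of any background was not tested. Array means of the marker lists of B cells, CD172a+ DC, macrophages, thymic epithelium, erythroid cells and plasmacytoid DC stayed between 3.89 and 6.21. XCR1+ DC markers averaged 9.99 to 10.22 on immature and 7.12 to 8.35 on mature arrays, with 7 of 11 called lower and 1 higher in each background, while mature DC markers were called higher for 10 of 10 measured in each. The sort gene Ccr7 averaged 8.99 in immature and 11.98 in mature CTRL cells. The Ifnar1 probeset read 8.07, 7.27 and 7.66 in immature Ifnar1-KO cells against 8.06 to 8.09 in CTRL, and 7.61, 6.07 and 6.96 in mature Ifnar1-KO cells against 7.61 to 7.82 in CTRL. Its mean was lower in Ifnar1-KO at both stages, but replicate 1 lay within the CTRL range each time, so the signal does not mark every Ifnar1-KO array. The backgrounds also differed in sex-linked genes: the Y-linked Eif2s3y read 3.34 to 3.49 on CTRL, 5.22 to 7.84 on Ifnar1-KO and 7.71 to 8.76 on GF arrays. The X-linked Xist, a transcript of female cells, read 7.80 to 9.63 on CTRL, 6.14 to 8.91 on Ifnar1-KO and 3.80 to 4.37 on GF arrays. Every Ifnar1-KO array thus held signal of both genes. The part of sex in differences between backgrounds was not tested. For GF against CTRL it cannot be told apart from that of housing. For Ifnar1-KO against CTRL it cannot be told apart from that of genotype, since the Eif2s3y ranges did not overlap.

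The members also differed in how their arrays scattered around the group means. Over the 18 arrays, the correlation of these deviations between members ran from -0.41 (Rel with Nfkbib) to 0.87 (Nfkb2 with Bcl3), with a median of 0.34 over 45 pairs. Of these pairs, 37 were positive. Rel and Map3k14 (0.79) and Nfkb2 and Nfkbia (0.77) followed. These values compare genes read on the same arrays, so a feature of an array can move several genes together, and no test was made. On the Ifnar1-KO replicate 2 arrays, Map3k14 stood 0.72 below its immature group mean (-0.72) and 0.71 below its mature one (-0.71), and Rel stood at -0.50 and -0.54. The same arrays held the highest thymocyte marker means of their groups, 5.28 and 7.71. They also held the lowest XCR1+ DC marker means, 10.01 and 7.12, and the lowest Ifnar1 readings, 7.27 and 6.07. The part of any of these in the deviations was not tested.

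**Figure D4:**
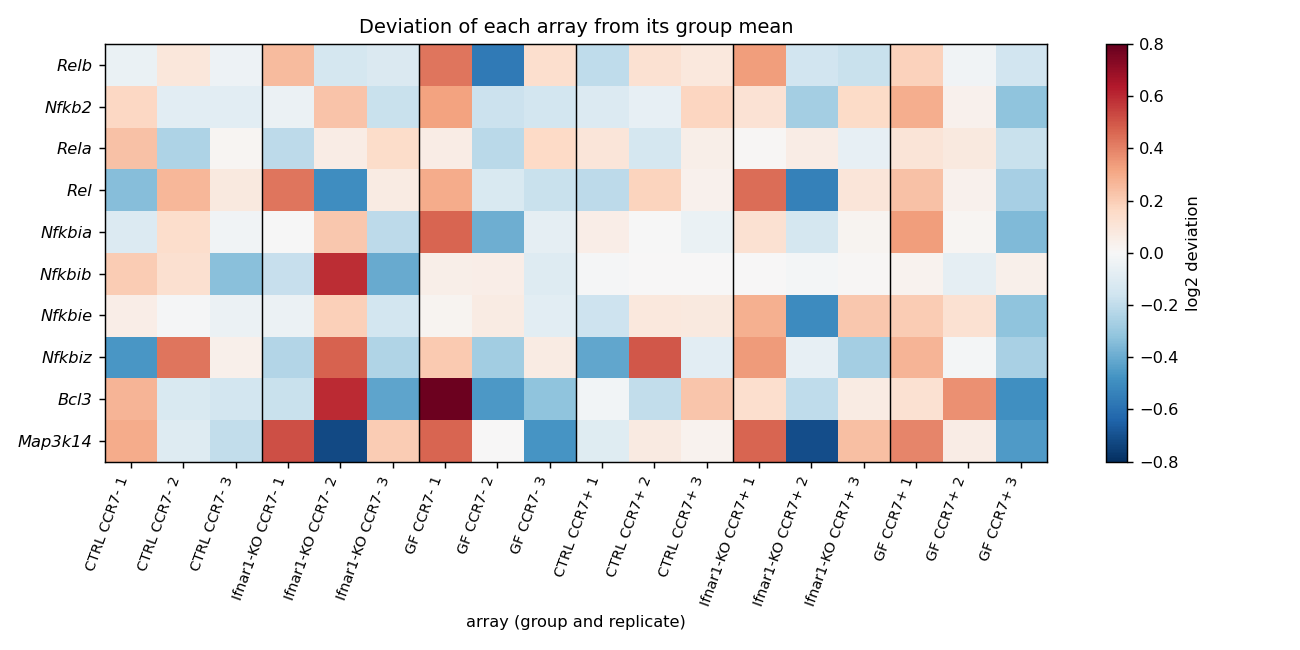
Deviation of each array from its group mean on the log2 scale (colour), for each of the 10 genes (rows) on the 18 arrays (columns, by group and replicate). Map3k14 and Rel are low on both Ifnar1-KO replicate 2 arrays, while Nfkbib is nearly flat across the mature arrays.

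The other genes of the pathway did not all move with the members. For comparison with the lists below, 12.6% of all genes were called higher and 13.6% lower in CTRL, with a median of 0.07. The shares were 9.42% and 10.8% in Ifnar1-KO, and 9.53% and 11.8% in GF. The 5 of 6 measured other family and IkB genes gave 1 called higher in CTRL and 0 in Ifnar1-KO and GF, with a median change of -0.17 in CTRL. The called gene was Nfkbil1, an IkB-like gene, at 0.51 ± 0.14 (adjusted p = 0.0107). Nfkbid, which encodes a nuclear IkB, was at -0.17 in CTRL (adjusted p = 0.797) and was picked out after its values were seen. Nfkb1, which encodes the p50 precursor, was not analysed here.

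Of 13 measured genes of the IKK complex and the kinases above it (17 listed), 5 were called higher and 1 lower in CTRL, 5 and 0 in Ifnar1-KO, and 4 and 0 in GF, with a median of 0.25 in CTRL. Tank, an adaptor of the IKK-related kinases, changed by 2.31 ± 0.23 in CTRL, 2.37 in Ifnar1-KO and 2.41 in GF. Ikbkb, the catalytic IKK beta, changed by 1.90 ± 0.33, 1.99 and 2.11, and Tbk1, an IKK-related kinase, by 1.20 ± 0.22, 1.09 and 0.84. Ikbkg, the regulatory subunit, was at 0.25 in CTRL (adjusted p = 0.216). Tab1, an activator of the kinase TAK1, was the gene called lower (-0.51, adjusted p = 0.0193); it and Ikbkg were picked out after their values were seen. Among 6 of 7 adaptor and linear ubiquitin ligase genes, 3 were called higher in CTRL and 2 in each of Ifnar1-KO and GF, none lower. Malt1, a paracaspase, changed by 1.62 ± 0.36 in CTRL, 1.73 in Ifnar1-KO and 1.52 in GF, and the ligase subunits Sharpin and Rnf31 by 0.67 ± 0.15 and 0.58 ± 0.19 in CTRL. Rnf31 was also called higher in Ifnar1-KO (0.78, adjusted p = 0.00698) and GF (0.79, adjusted p = 0.00612). Sharpin was not called in Ifnar1-KO (0.37, adjusted p = 0.0945) or GF (0.28, adjusted p = 0.212).

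Among 7 of 8 genes upstream of NIK, 6 were called higher and 0 lower in CTRL, 6 and 1 in Ifnar1-KO, and 5 and 0 in GF, with a median of 1.17 in CTRL. Birc2, an ubiquitin ligase of the complex that degrades NIK, read 6.91 to 7.32 in immature and 9.96 to 10.21 in mature CTRL cells, a change of 2.96 ± 0.25 (adjusted p = 4.22e-07), with 3.16 in Ifnar1-KO and 3.28 in GF. Tnfrsf11a, which encodes the receptor RANK, changed by 2.19 ± 0.16, 2.24 and 2.004. The receptor gene Cd40 changed by 1.81 ± 0.16, 2.14 and 1.96. Ltbr, the lymphotoxin beta receptor gene, was at -0.01 in CTRL (adjusted p = 0.973) and was the gene called lower in Ifnar1-KO (-0.62, adjusted p = 0.0112), picked out after its values were seen. The list therefore holds both receptors that feed NIK and ligases that remove it, and genes of both kinds rose.

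Of the brakes on the pathway, 3 of 8 were called higher and 0 lower in CTRL, 3 and 0 in Ifnar1-KO, and 3 and 1 in GF. The 3 genes called higher in CTRL were Tnfaip3, which encodes a ubiquitin-editing inhibitor of the IKK step (1.47 ± 0.26, and 1.86 and 1.75 in the other backgrounds), N4bp1 (1.26 ± 0.16) and Tnip1, a Tnfaip3 partner (0.96 ± 0.27). The gene lower in GF was Pdlim2 (-0.95, adjusted p = 0.00587), which encodes a ligase for nuclear RelA and was picked out after its values were seen. Of 23 textbook NF-kB target genes, 15 were called higher and 3 lower in CTRL, 17 and 1 in Ifnar1-KO, and 16 and 3 in GF, with a median of 1.57 in CTRL. The chemokine gene Ccl5 changed by 4.61 ± 0.33, the chemokine gene Ccl19 by 4.04 ± 0.23 and the cyclooxygenase gene Ptgs2 by 3.75 ± 0.23. In the opposite direction the cytokine gene Il1b fell, reading 8.67 to 9.75 in immature and 5.17 to 5.995 in mature CTRL cells (-3.64 ± 0.44, adjusted p = 1.63e-05), with -2.70 in Ifnar1-KO and -3.28 in GF. Cd86 (-0.56) and Sod2 (-0.59) were the other 2 called lower in CTRL, and all 3 were picked out after their values were seen. Of 2 further cytokine genes, also picked out after their values were seen, Tnf was called in no background (0.08 in CTRL, 0.28 in Ifnar1-KO and -0.11 in GF). Il6 was not called in CTRL (0.56, adjusted p = 0.213) but was called higher in Ifnar1-KO (1.48, adjusted p = 0.00281) and GF (0.97, adjusted p = 0.0387). Its change, like that of all other genes, was not called as different between backgrounds.

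**Figure D5:**
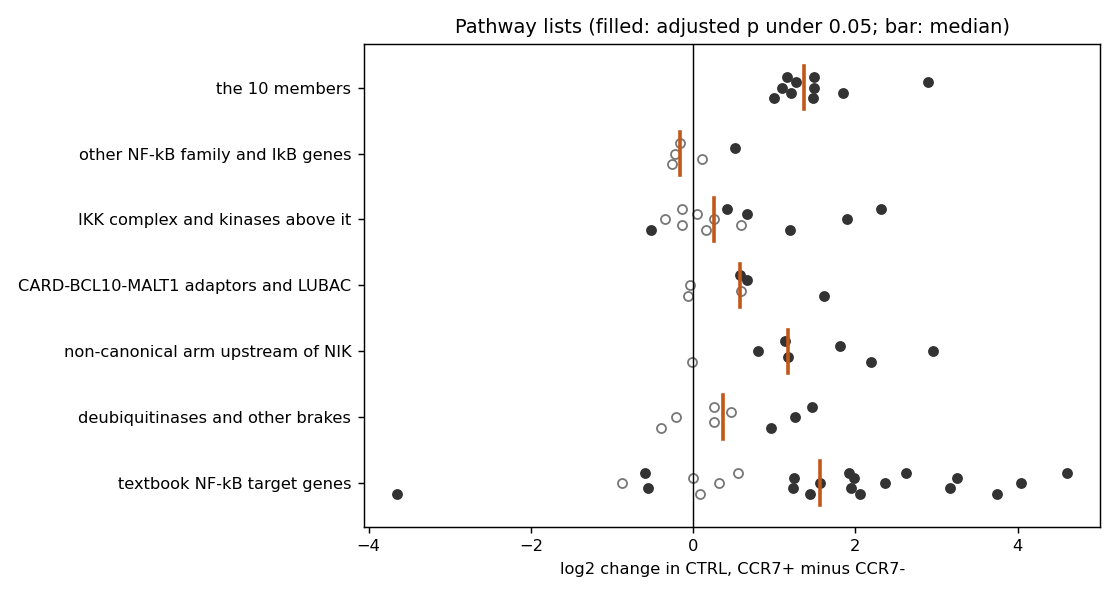
Change from CCR7- to CCR7+ cells in CTRL mice on the log2 scale for each measured gene (points) of the 10 members and of each pathway list, filled where the adjusted p is under 0.05, with list medians as bars. All 10 members lie to the right of 0, while the target list spans from -3.64 (Il1b) to 4.61 (Ccl5).

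Since Relb changed most, the genes most like it over the 18 arrays were listed. The highest Pearson correlations were with Epsti1 (0.995), Cd40 (0.994), the mitochondrial protease gene Htra2 (0.993), the TRAF adaptor gene Traf1 (0.993) and the TNF receptor family gene Tnfrsf4 (0.993). High values are common in these arrays: 814 of 17055 named genes had a correlation above 0.9 with Relb. The correlation runs over both stages, so a gene that differs strongly between stages can score high. Among the members, Nfkb2 came closest (0.977, place 140), followed by Nfkbia (0.969, place 220), and Nfkbiz was the least alike (0.890). Relb and Bcl3 lie on chromosome 7 with 10 protein-coding genes between them in the RefSeq order. No test was made of these correlations.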

How the data were processed

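Total RNA from sorted cells went through NuGEN Ovation Pico amplification, per the labels' protocols. The deposited values are log2 intensities made with RMA in the oligo package, per the submitters' processing notes; the notes give neither versions nor a genome build, nor whether the arrays were processed as 1 set. Of 35556 probesets, 21789 have 1 gene symbol, 1621 several and 12146 none. The highest-mean probeset was used for each of 19938 genes, with no filter on level and no further normalisation. An array has no read depth, and 3 arrays per group limit the precision; the median 95% half-width for a member was 0.43 for a maturation change.

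Each gene was fitted in limma 3.58.1 (R 4.3.3) as 6 group means, which left 12 residual degrees of freedom (14.4 after eBayes), with 9 comparisons and Benjamini-Hochberg adjustment over all genes; a gene was called at an adjusted p under 0.05. The script was tested on simulated data. Pathway genes named are the 3 of each list with the largest called change in CTRL, and genes picked out after their values were seen are marked as such. The members and lists were chosen with earlier results of these data known. Same-numbered arrays of the 2 stages deviated together in CTRL (correlations 0.188, 0.147 and 0.100) and Ifnar1-KO (0.284, 0.321 and 0.236), but not in every GF pair (0.267, 0.00354 and 0.0296). In all, 27 other settings and 2 more chosen after seeing the data were run. Promoter windows and gene order are RefSeq's (GRCm38.p6). Sorting purity, age and sex were not modelled.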

Additional observations from a re-analysis of the deposited data

How the results depend on the processing

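In CTRL and Ifnar1-KO mice, all 10 members stayed called under the other settings with all arrays and under both settings added after seeing the data. These settings were centring each array, quantile normalisation, a filter on low genes, probeset means, an intensity trend, array weights, only the groups compared, the array-code mark as a covariate and the replicate block. The mark is a trailing r, whose meaning the labels do not give. It was on every GF array, on replicate 1 of CTRL and on replicates 2 and 3 of Ifnar1-KO, so it was partly aligned with background. In GF the count was 10 under these settings, 9 with only the groups compared, where Bcl3 was lost (1.40, adjusted p = 0.0587), and 5 without GF replicates 2 and 3. Leaving out 1 array gave 9 to 10 called members in CTRL, 10 in Ifnar1-KO and 9 to 10 in GF; the member lost was Nfkbiz each time. With the replicate block, 10, 10 and 10 members were called in the 3 maturation comparisons and 0 in the others, so it changed no member's call, though it moved the intervals given in the report. In the 6 comparisons between backgrounds, 0 members were called under any of the settings. Of 870 member maturation results, 858 kept their call, 12 lost it and 0 reversed. In many of these results the size of the change was fixed in advance, so the count says little about robustness. With 1 probeset per member, probeset means and the filter on low genes leave the change as it was. Leaving out an array of another background alters only its spread. The change of Relb ranged from 2.83 to 3.04 in CTRL, 3.23 to 3.52 in Ifnar1-KO and 2.80 to 3.29 in GF. The median 95% half-width of a member's difference of changes was 0.61 log2 units, which limits what these arrays can resolve between backgrounds.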
